A study of Mus musculus with 12 samples.

Results

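The genes described are 10 of the MHC class I pathway, taken by name from the count table as class I chains, peptide transporters and loading factors, a trimming enzyme and the regulator of these genes: H2-K1, H2-D1, H2-Q6, H2-Q7, B2m, Tap1, Tap2, Tapbp, Erap1 and Nlrc5. They are 10 of the 32245 gene rows of the table and 10 of the 13772 genes that passed the filter on low counts. They were selected on names with earlier results on their counts across the 6 groups in view, and no single contrast was named, so the levels and changes of the 10 genes are given as descriptions with no p-value. The libraries came from OCY454, a mouse osteocyte-like cell line that divides at 33 °C and differentiates when moved to 37 °C. The unedited line (WT) was compared with a line in which exons 19 to 21 of Piezo1, a mechanically gated cation channel, were removed by CRISPR-Cas9 (its libraries carry the label KO). Poly(A) RNA was sequenced after 1 (basal), 14 and 28 days at 37 °C, with 2 libraries for each line and day, and both lines carry the same background and received the same medium. The labels state neither the number of edited clones nor whether the replicates were separate cultures, so each p-value covers just the spread among these samples, which may be technical. In such bulk libraries, fewer cells of a type and less RNA per cell cannot be told apart.

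MHC class I molecules display peptides from inside the cell to CD8 T cells. A heavy chain (H2-K1 and H2-D1 in the classical group, H2-Q6 and H2-Q7 in the non-classical Q group) pairs with beta-2 microglobulin, encoded by B2m. Proteasomes cut proteins into peptides, the Tap1 and Tap2 transporter moves them into the endoplasmic reticulum, Erap1 trims them there, and tapasin (Tapbp) holds the empty class I molecule at the transporter while calreticulin, calnexin and Pdia3 assist folding. Nlrc5 is a transactivator that works at class I promoters with the RFX, NF-Y and CREB factors, and interferons raise the transcription of most of these genes.

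Most of the class I genes stood higher after 28 days at 37 °C than on day 1 in both lines, and the heavy chains differed from one another between the lines. H2-Q6 had 253 and 174 counts in WT on day 28 and 5 and 5 in KO. H2-Q7 and H2-K1 were lower in KO at each day, while H2-D1 and B2m differed by 1.20-fold or less between the lines. Nlrc5 was 2.83-fold higher in KO on day 14, and Tapbp was 1.91-fold lower in KO on day 28.

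The promoters of H2-K1, H2-Q6 and H2-Q7, which stood lower in KO, and of B2m, which stood close, are shown first, and that of H2-D1 is described in words. Each sequence holds the 250 bases before the transcription start from RefSeq on GRCm38.p6. A promoter entry was matched for 8 of the 10 genes, all but Tap2 and Nlrc5. Capitals mark matches, on either strand, to 5 motifs: the interferon-stimulated response element core (GAAA, any 2 bases, GAAA), the gamma-activated site core (TTC, any 3 bases, GAA), the CCAAT box (CCAAT, or ATTGG on the other strand), the kappa B site (GGG, any 2 bases, TTCCC) and the cyclic AMP response element core (TGACG). No 2 matches share bases.
H2-K1, chr17:34000348-34000597, minus strand: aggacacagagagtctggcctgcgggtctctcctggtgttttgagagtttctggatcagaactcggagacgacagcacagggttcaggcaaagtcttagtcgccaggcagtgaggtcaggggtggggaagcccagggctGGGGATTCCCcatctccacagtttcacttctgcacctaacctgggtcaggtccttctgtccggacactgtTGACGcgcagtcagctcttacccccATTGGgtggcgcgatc
H2-Q6, chr17:35424600-35424849, plus strand: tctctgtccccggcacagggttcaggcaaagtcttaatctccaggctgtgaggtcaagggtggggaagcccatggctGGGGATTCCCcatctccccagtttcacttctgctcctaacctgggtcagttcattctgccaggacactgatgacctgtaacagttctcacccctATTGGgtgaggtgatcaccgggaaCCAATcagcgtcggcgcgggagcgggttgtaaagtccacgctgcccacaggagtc
H2-Q7, chr17:35438905-35439154, plus strand: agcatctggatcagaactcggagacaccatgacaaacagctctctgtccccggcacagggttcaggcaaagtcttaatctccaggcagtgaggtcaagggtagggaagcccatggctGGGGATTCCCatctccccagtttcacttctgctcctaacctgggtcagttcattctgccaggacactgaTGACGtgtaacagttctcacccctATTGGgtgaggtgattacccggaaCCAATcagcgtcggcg
B2m, chr2:122147437-122147686, plus strand: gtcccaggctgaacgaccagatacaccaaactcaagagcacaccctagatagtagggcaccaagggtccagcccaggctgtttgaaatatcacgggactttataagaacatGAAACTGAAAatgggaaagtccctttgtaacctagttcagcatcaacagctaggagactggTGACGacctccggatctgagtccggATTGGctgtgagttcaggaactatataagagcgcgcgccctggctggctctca

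A kappa B match with the letters GGGGATTCCC stood in the promoters of all 4 heavy chain genes, the first of the 2 annotated H2-K1 starts being the one shown, and in none of the other 4 promoters. Over the 32851 promoters of the same length, 1.53% held a kappa B match. The core TGACG was matched in H2-K1, H2-D1, H2-Q7, B2m and Tap1, and not in H2-Q6, against 17.8% of all promoters. A CCAAT match was found in 7 of the 8, all but Erap1, against 33.8%. B2m alone held the interferon-stimulated core (2.98% of all promoters), and none of the 8 held the gamma-activated core (7.02%). The Erap1 promoter held none of the 5. The windows of Erap1, Tapbp and H2-D1 lay inside the annotated span of the gene given below. The presence or absence of a match thus depends on which annotated start was used. All the matches describe letters in a window and are no evidence of binding.

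The next 4 sequences are the same stretch of 90 bases of coding exon 2, which encodes part of the peptide-binding groove, read from GRCm38/mm10 along the GENCODE transcripts. They are shown because the counts of 4 similar genes depend on bases that tell them apart. Capitals mark the bases that differ from H2-K1.
H2-K1, chr17:33999914-34000003, minus strand: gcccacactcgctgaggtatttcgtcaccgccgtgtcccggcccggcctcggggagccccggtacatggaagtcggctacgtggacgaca
H2-D1, chr17:35263379-35263468, plus strand: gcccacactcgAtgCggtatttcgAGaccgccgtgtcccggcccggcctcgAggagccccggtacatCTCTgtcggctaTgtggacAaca
H2-Q6, chr17:35425108-35425197, plus strand: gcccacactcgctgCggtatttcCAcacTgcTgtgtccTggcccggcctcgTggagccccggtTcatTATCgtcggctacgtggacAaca
H2-Q7, chr17:35439452-35439541, plus strand: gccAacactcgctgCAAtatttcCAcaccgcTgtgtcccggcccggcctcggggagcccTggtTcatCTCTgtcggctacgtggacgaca

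In this stretch H2-D1 differed from H2-K1 at 11 of 90 bases, and H2-Q6 and H2-Q7 each at 13. Over the whole of exon 2 (270 bases), H2-Q6 and H2-Q7 had 93.0% identity with 19 mismatches. Over exon 3 (276 bases) they had 94.9% identity with 14 mismatches, and over exon 4, which encodes the domain next to the membrane, 99.3% with 2. A read that falls within exon 4 can therefore often not be given to 1 of the 2 genes by its sequence. The windows of the transcript that occur in another annotated gene measure how far this reaches. For H2-Q6, 35.0% of windows of 50 bases and 13.0% of windows of 100 bases were shared, and for H2-Q7 34.9% and 16.4%. H2-K1 shared 8.79% and 0%, H2-D1 14.3% and 4.64%, and B2m and Nlrc5 0% at both lengths. Tap1 (6.47% and 3.96%), Tap2 (12.6% and 5.35%), Tapbp (21.0% and 14.0%) and Erap1 (14.0% and 13.3%) shared windows mostly with genes that overlap them on the opposite strand, such as Psmb9 in the case of Tap1 and Cast in that of Erap1. How the authors' counting treated strand and reads with several matches is not given in the sources used here, so the split between H2-Q6 and H2-Q7, and any reads from those antisense partners, are uncertain.

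**Figure D1:**
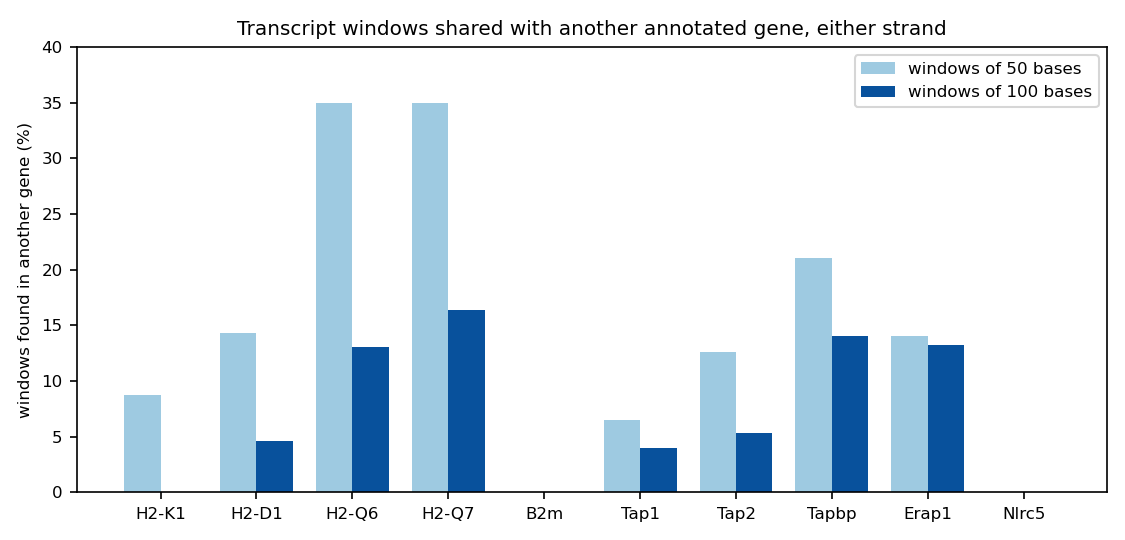
Percent of the windows of 50 bases (light) and 100 bases (dark) of each gene's transcript that also occur, on either strand, in another annotated gene. H2-Q6 and H2-Q7 are the highest at 50 bases with 35.0% and 34.9%, and B2m and Nlrc5 are at 0%.

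In the genome (GRCm38/mm10), 7 of the 10 genes lie within chromosome 17, which carries the mouse MHC. They are Tapbp (chr17:33915899-33929292), H2-K1 (chr17:33996017-34000347), Tap1 (chr17:34187553-34197225), Tap2 (chr17:34203527-34216321), H2-D1 (chr17:35262730-35267499), H2-Q6 (chr17:35424850-35430055) and H2-Q7 (chr17:35439155-35443773). B2m is at chr2:122147686-122153083, Nlrc5 at chr8:94434356-94527272 and Erap1 at chr13:74639568-74693201.

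Total counts ran from 8590067 to 15357427 per library. Piezo1 was counted at 216 and 214 CPM (counts scaled to a common library size by TMM) in WT on day 1, 211 and 206 on day 14, and 235 and 242 on day 28. In the libraries labelled KO it stood at 169.8 and 169, at 114 and 108, and at 281 and 276. The day 28 KO libraries were thus above WT. A count over the whole gene says little about a deletion of 3 exons, and the gene Ctu2 overlaps Piezo1 on the opposite strand, so this count does not check the labels. Osteoblast markers were abundant (summed CPM 3049 to 22233 over the libraries), while the 6 osteocyte markers summed to 25.6 to 79.8 CPM and Fgf23 was at 0 to 2 counts. These sums moved with line and day. The osteoblast sum was 11769 to 12265 CPM in WT and 21979 to 22233 in KO on day 14, and 4106 to 5841 against 3049 to 4734 on day 28. Col1a1 made up most of this sum in KO on day 14, at a mean of 17809 CPM. The osteoblast markers did not all move with it. The KO minus WT difference of the log2 change from day 1 to day 14 was 1.07 for Alpl, 0.97 for Sp7, 0.90 for Runx2, 0.88 for Col1a1 and 0.60 for Ibsp. For Spp1, Bglap and Bglap2 it was -0.34, -1.39 and -2.10. The osteocyte sum was 48.0 to 67.2 CPM in WT and 25.6 to 30.3 in KO on day 28. Pdpn made up most of the osteocyte sum in KO on day 14, at a mean of 39.3 CPM. The 10 leukocyte and antigen-presenting cell markers summed to 11.0 to 23.3 CPM in all 6 groups and the 4 endothelial markers to 1.18 to 5.70 CPM. Of the leukocyte markers, Adgre1, which marks macrophages, had 0 to 3 counts per library, and 1 or 2 of the 10 were at 0 in each. Among the markers of other cell types, KO minus WT was -0.76 for Csf1r on day 14, and -2.35 and -3.22 for Kdr on days 14 and 28 (log2, adjusted p below 0.05, edgeR). Mean Kdr levels were 0.818, 2.31 and 4.34 CPM in WT and 0.318, 0.446 and 0.463 in KO at the 3 days. Csf1r and Kdr were picked after their values were seen, and their calls were not checked with single libraries left out. On day 1, KO minus WT was -1.34 for Kdr, -1.08 for Pecam1 and -0.77 for Cdh5, with none called. The difference between the lines in the change from day 1 to day 28 (± standard error) was -1.88 ± 0.79 for Kdr, 0.96 ± 0.88 for Pecam1 and 1.09 ± 0.99 for Cdh5. Again none was called. With errors this wide, the values cannot tell whether the endothelial markers shared 1 course. The part of these markers and sums in the class I differences was not tested.

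H2-K1, a classical heavy chain, was counted in WT at 71.6 and 71.1 CPM on day 1, 212 and 204 on day 14, and 328 and 325 on day 28. In KO it was at 29.0 and 28.7, at 150.4 and 154, and at 269 and 277 CPM. Every KO library lay below both WT libraries of its day, and within each line the 3 days did not overlap. On the log2 scale KO minus WT was -1.31 ± 0.07 on day 1, -0.45 ± 0.06 on day 14 and -0.26 ± 0.06 on day 28 (edgeR estimate ± standard error, n = 2 libraries per group here and below). Day 28 minus day 1 was 2.19 ± 0.06 in WT and 3.24 ± 0.07 in KO, a 4.57-fold and a 9.48-fold difference of the mean CPM. As a log ratio, the difference between the lines was largest on day 1 and smaller at each later day.

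H2-D1, the other classical heavy chain and the more abundant of the pair, was at 256 and 279 CPM in WT on day 1, 588 and 570.3 on day 14, and 955 and 898 on day 28. In KO it was at 222 and 229, at 544 and 584, and at 839 and 786 CPM. The lines overlapped on day 14 and were apart on days 1 and 28 by less than the step between days. KO minus WT was -0.25 ± 0.07, -0.04 ± 0.07 and -0.19 ± 0.06, and day 28 minus day 1 was 1.79 ± 0.07 in WT and 1.85 ± 0.07 in KO. Within each library, the counts of H2-K1 and H2-D1 were also set against each other. The ratio of H2-K1 to H2-D1 counts was 0.279 and 0.255 in WT on day 1 and 0.130 and 0.125 in KO. By day 28 it was 0.343 and 0.362 in WT and 0.321 and 0.352 in KO, where the lines overlapped.

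H2-Q6, a non-classical heavy chain gene, had 7 and 14 counts in WT on day 1, 87 and 65 on day 14, and 253 and 174 on day 28. In KO it had 4 and 5 counts on day 1, 2 and 5 on day 14, and 5 and 5 on day 28. In CPM, WT went from 0.455 and 0.919 over 7.33 and 7.52 to 17.7 and 14.4, and all 6 KO libraries stayed between 0.189 and 0.433. The KO days overlapped one another, and at each day the KO libraries lay below WT. This gene passed the filter on low counts only through its WT libraries on days 14 and 28, so it had to differ from KO there. KO minus WT was -0.93 ± 0.55 on day 1, -4.52 ± 0.39 on day 14 and -5.36 ± 0.31 on day 28. Day 28 minus day 1 was 4.53 ± 0.27 in WT and 0.10 ± 0.65 in KO.

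H2-Q7, a neighbour of H2-Q6 that encodes one of the Qa antigens, had 34 and 36 counts in WT on day 1, 247 and 146 on day 14, and 365 and 323 on day 28. In KO it had 3 and 4, then 38 and 24, then 131 and 146 counts. Unlike H2-Q6, H2-Q7 stood higher at each later day in KO, at 0.256 and 0.294, 3.59 and 2.06, and 11.3 and 9.91 CPM. The WT libraries stood at 2.21 and 2.36, 20.8 and 16.9, and 25.5 and 26.7 CPM, above every KO library of the same day. KO minus WT was -3.00 ± 0.45, -2.76 ± 0.21 and -1.30 ± 0.15, and day 28 minus day 1 was 3.50 ± 0.19 in WT and 5.21 ± 0.34 in KO. Because reads of exon 4 can be exchanged between the 2 genes, their counts were also added. The sum of H2-Q6 and H2-Q7 was 41 and 50 counts in WT and 7 and 9 in KO on day 1, 334 and 211 against 40 and 29 on day 14, and 618 and 497 against 136 and 151 on day 28. The sum was thus lower in both KO libraries at each day, however the reads were split between the 2 genes. It does not cover reads shared with genes outside the pair. Windows of 50 bases of both H2-Q6 and H2-Q7 also occur in H2-Q5 and H2-D1, and H2-D1 had far more counts. The part of such reads in the sum was not tested.

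B2m, the chain shared by all class I molecules, was at 305 and 310.1 CPM in WT on day 1, 841 and 765 on day 14, and 1182 and 1140.5 on day 28. In KO it was at 365 and 371, at 821 and 854, and at 1005 and 1004 CPM. KO lay above WT on day 1, overlapped it on day 14 and lay below it on day 28, with differences of 0.26 ± 0.06, 0.06 ± 0.06 and -0.21 ± 0.06. Day 28 minus day 1 was 1.92 ± 0.06 in WT and 1.45 ± 0.06 in KO.

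Tap1 and Tap2 encode the 2 chains of the peptide transporter. Tap1 was at 21.8 and 19.8 CPM in WT on day 1, 42.7 and 45.5 on day 14, and 65.5 and 57.1 on day 28, and in KO at 28.2 and 25.2, 60.0 and 56.2, and 73.7 and 66.5. KO lay above WT at each day, with differences of 0.36 ± 0.11, 0.40 ± 0.09 and 0.19 ± 0.09. Tap2 was at 30.7 and 25.5 CPM in WT on day 1, 38.9 and 41.1 on day 14, and 53.7 and 57.2 on day 28. In KO, Tap2 was at 20.9 and 20.2, 34.6 and 32.7, and 62.5 and 79.7 CPM. The Tap2 libraries labelled KO were thus below WT on days 1 and 14 and above it on day 28, with differences of -0.45 ± 0.12, -0.25 ± 0.12 and 0.37 ± 0.10. The day 28 value was 0.18 without KO replicate 2. Day 28 minus day 1 was 1.56 ± 0.10 for Tap1 and 0.98 ± 0.11 for Tap2 in WT, and 1.39 ± 0.10 and 1.80 ± 0.11 in KO.

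Tapbp, which encodes tapasin, followed another course. It was at 84.6 and 86.2 CPM in WT on day 1, 67.7 and 70.5 on day 14, and 123 and 119 on day 28. In KO it was at 95.6 and 97.6, 75.8 and 80.7, and 52.2 and 75.2 CPM. Both lines were lower on day 14 than on day 1, and then the WT libraries were higher and the KO libraries lower on day 28. KO minus WT was 0.18 ± 0.10, 0.18 ± 0.11 and -0.92 ± 0.10. Day 28 minus day 1 was 0.51 ± 0.10 in WT and -0.59 ± 0.10 in KO, where the 2 libraries on day 28 differed from each other. The KO value was -0.37 without KO replicate 1 of day 28 and -0.89 without replicate 2, and day 28 minus day 14 in KO (-0.29 ± 0.11) was -0.06 and -0.59. Tapbp shares 1053 exon bases with other genes, most of them with the antisense gene Gm19412, whose part in these counts was not tested.

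Erap1, the aminopeptidase that trims peptides in the endoplasmic reticulum, was at 12.4 and 10.3 CPM in WT on day 1, 11.8 and 14.9 on day 14, and 17.1 and 23.2 on day 28. In KO it was at 16.0 and 13.1, 13.7 and 11.5, and 20.6 and 25.9 CPM. The lines overlapped on days 14 and 28. KO minus WT was 0.35 ± 0.18, -0.07 ± 0.19 and 0.22 ± 0.16, and day 28 minus day 1 was 0.82 ± 0.17 in WT and 0.69 ± 0.16 in KO.

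Nlrc5, the class I transactivator, was at 12.4 and 14.0 CPM in WT on day 1, 27.8 and 27.5 on day 14, and 43.8 and 48.6 on day 28. In KO it was at 14.6 and 17.3, 79.9 and 77.0, and 66.2 and 83.7 CPM. The KO libraries lay above WT at each day and furthest on day 14, with differences of 0.28 ± 0.14, 1.5 ± 0.11 and 0.71 ± 0.10. In WT the 3 days did not overlap, while in KO days 14 and 28 did.

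**Figure D2:**
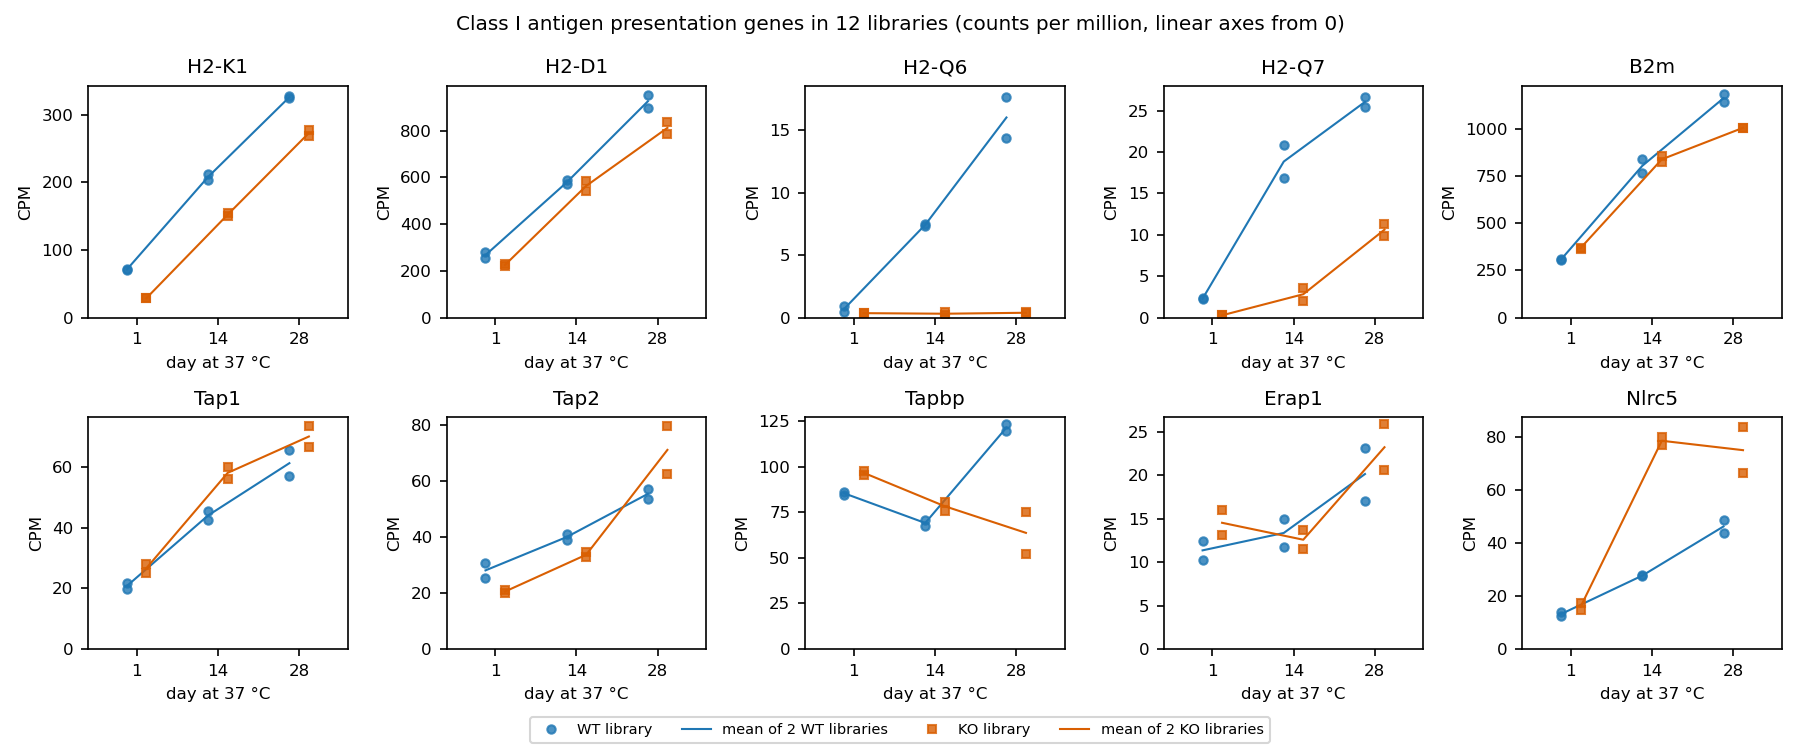
CPM (linear axes from 0) of the 10 genes by day at 37 °C; each point is 1 library, WT as blue circles and KO as orange squares, and the lines join the means of 2 libraries. H2-Q6 rises from 0.455 and 0.919 to 17.7 and 14.4 CPM in WT and stays between 0.189 and 0.433 in KO. Tapbp parts in opposite directions on day 28, where 1 of the 2 KO libraries (75.2 CPM) lies close to the lower KO library of day 14 (75.8 CPM).

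Side by side, the differences between the lines spanned -5.36 (H2-Q6 on day 28) to 1.5 (Nlrc5 on day 14) on the log2 scale. By edgeR's quasi-likelihood test with Benjamini-Hochberg adjustment over all 13772 genes, at an adjusted p below 0.05, 2 of the 10 genes were called higher and 4 lower in KO on day 1, where 40.3% of all genes tested were called (19.5% higher and 20.8% lower). At day 14, 2 were called higher and 3 lower, against 49.7% of all genes (23.8% and 25.9%). At day 28, 2 were called higher and 6 lower, against 41.0% (19.8% and 21.2%). The median log2 difference of the 10 was -0.03, -0.06 and -0.20 at the 3 days, beside -0.01, -0.02 and -0.01 over all genes tested. In CPM, 5 of the 10 lay above and 5 below without overlap on day 1 (35.8% and 37.4% of all genes tested), 3 and 4 on day 14 (37.2% and 39.2%), and 3 and 6 on day 28 (31.9% and 32.8%). As the genes were chosen with such results known, nothing is read from these counts.

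**Figure D3:**
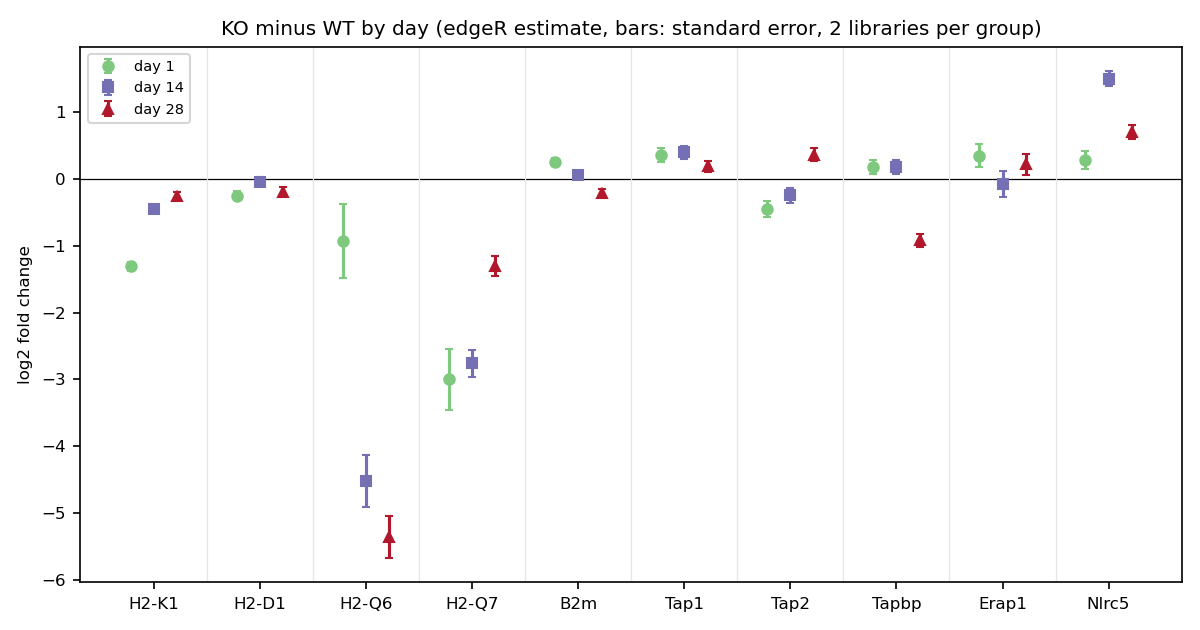
Log2 fold change of KO minus WT for each gene on day 1 (green circles), day 14 (violet squares) and day 28 (red triangles); bars are standard errors of the edgeR estimate with 2 libraries per group. H2-Q7 lies lowest on day 1 and H2-Q6 on days 14 and 28, Nlrc5 and Tap1 lie above 0 at each day, and B2m, Tap2, Tapbp and Erap1 cross 0 between days.

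Over time, all 10 genes were called higher in WT on day 28 than on day 1, where 24.6% of all genes tested were called higher and 23.4% lower. H2-Q6 passed the filter on low counts only through WT on days 14 and 28, so that its WT call was built in. In KO, 8 were called higher and 1 lower (28.2% and 27.4% of all genes). The median of the 10 was 1.80 in WT and 1.62 in KO, beside -0.00 and 0.01 over all genes tested. In either direction, 48.0% of all genes were called in WT and 55.5% in KO. Between days 1 and 14, 8 were called higher and 1 lower in WT (18.2% and 15.9% of all genes, 34.1% together), and 7 and 1 in KO (19.4% and 18.0%, 37.5% together). From day 14 to day 28, 10 and 0 were called in WT (17.9% and 16.8%, 34.7% together) and 7 and 1 in KO (25.6% and 25.1%, 50.7% together). By CPM alone, the libraries did not overlap for 8 higher and 1 lower from day 1 to day 14 in WT (34.4% and 34.8% of all genes tested), 10 and 0 from day 14 to day 28 (32.1% and 32.1%), and 10 and 0 from day 1 to day 28 (35.6% and 36.3%). The same counts in KO were 7 and 1 (36.6% and 36.4%), 7 and 1 (37.2% and 37.8%), and 8 and 1 (39.5% and 38.5%). The exceptions in KO between days 1 and 28 were Tapbp, which stood lower, and H2-Q6 at 0.10 ± 0.65. The comparisons of the 2 lines with themselves and with each other share their libraries, so the values are set side by side only, and nothing is read from the counts of genes chosen with such values in view.

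**Figure D4:**
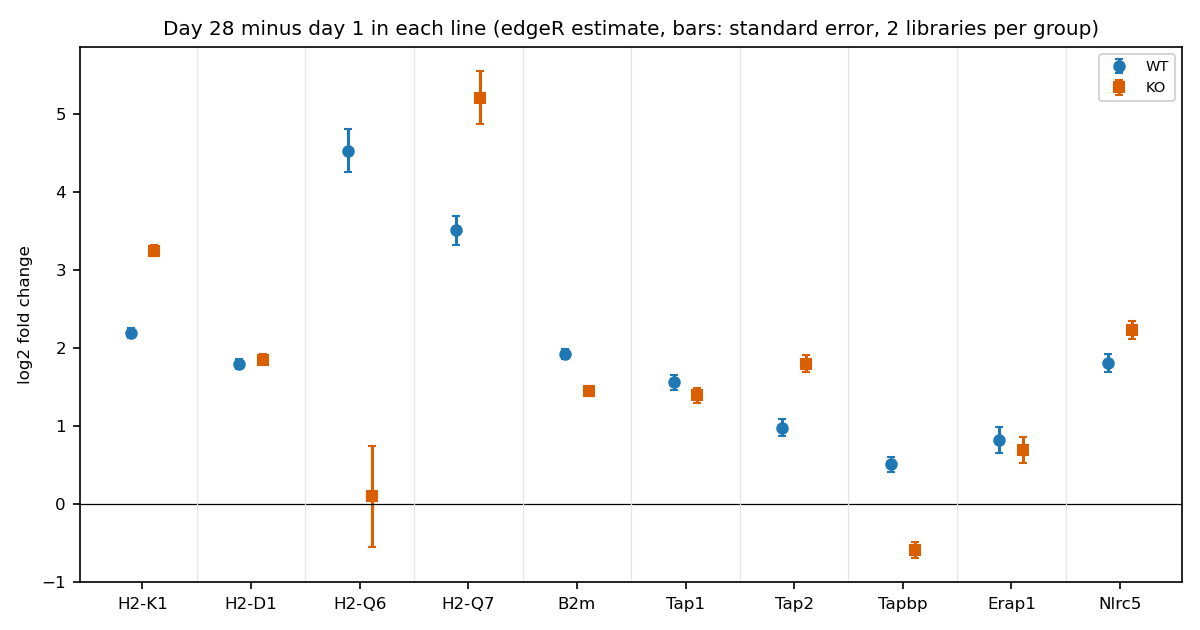
Log2 fold change of day 28 minus day 1 for each gene in WT (blue circles) and KO (orange squares); bars are standard errors of the edgeR estimate with 2 libraries per group. H2-K1, H2-Q7 and Tap2 sit higher in KO than in WT, H2-Q6 is at 4.53 in WT and 0.10 in KO, and Tapbp is above 0 in WT and below it in KO. The KO value of H2-Q7 rests on 3 and 4 counts on day 1.

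The difference between the lines in the change from day 1 to day 28 (KO minus WT) was -4.43 ± 0.82 for H2-Q6, -1.10 ± 0.14 for Tapbp and -0.47 ± 0.09 for B2m. It was 1.70 ± 0.52 for H2-Q7 (3 and 4 counts in the KO libraries of day 1), 1.05 ± 0.09 for H2-K1 and 0.82 ± 0.16 for Tap2. For Nlrc5, H2-D1, Erap1 and Tap1 it was 0.43 ± 0.17, 0.06 ± 0.09, -0.13 ± 0.23 and -0.17 ± 0.14. From day 1 to day 14 it was 1.22 ± 0.18 for Nlrc5, 0.86 ± 0.09 for H2-K1 and -3.59 ± 0.83 for H2-Q6. By the same test, 2 were called higher and 1 lower from day 1 to day 14 (9.19% and 9.65% of all genes tested, 18.8% together), 2 and 3 from day 14 to day 28 (12.6% and 11.5%, 24.1% together) and 3 and 3 from day 1 to day 28 (10.6% and 9.46%, 20.0% together). H2-Q6 passed the filter on low counts only through WT on days 14 and 28, so its negative values against day 1 were built in. Nothing is read from these counts.

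Levels were compared between genes per kilobase of exon (RPKM, the union of annotated exons). B2m ranked 1 in all 6 groups, from 358 ± 4.01 (SD, n = 2) in WT on day 1 to 1350.1 ± 33.8 on day 28, and H2-D1 ranked 2 in all 6, from 87.4 ± 1.82 in KO on day 1 to 359 ± 15.7 in WT on day 28. H2-K1 ranked 3 in 5 groups, and 4 in KO on day 1 at 9.81 ± 0.06, where Tapbp stood at 26.6 ± 0.40. The lowest rank was held by H2-Q6 in WT on day 1 (0.329 ± 0.16) and in KO on days 14 (0.148 ± 0.08) and 28 (0.185 ± 0.03), by H2-Q7 in KO on day 1 (0.0645 ± 0.01) and by Erap1 in WT on days 14 and 28 (1.84 ± 0.30 and 2.77 ± 0.59). Neighbours in the order that overlapped in their libraries were Erap1 and Nlrc5 on day 1 in both lines, Nlrc5 and Tap2 in KO on day 14, and Tap2 and Tapbp in KO on day 28. H2-Q7 has an annotated exon union of 4265 bases against 2085 for H2-Q6, so the order of these 2 depends on the length used.

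Genes with the pattern most like the mean of the 10 were found by the correlation of log2 CPM over the 12 libraries, which fall into 6 groups. They were Wdfy2 (Pearson r = 0.984), Shc1 (0.981), Ddi2 (0.980), Gm8251 (0.976), Jak1 (0.975), Gbp6 (0.971), Twf2 (0.970), Gbp9 (0.970), Mcfd2 (0.965) and Rora (0.964). These values are descriptions of 12 libraries that share lines and days.

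Other genes of the pathway were taken from 9 lists with 88 names, of which 57 genes were tested. Among the 57, 13 rose and 12 fell in KO against WT on day 1, 16 and 20 on day 14, and 17 and 15 on day 28 (adjusted p below 0.05, edgeR as above). Of all genes tested, 19.5% rose and 20.8% fell on day 1, 23.8% and 25.9% on day 14, and 19.8% and 21.2% on day 28. Between days 1 and 28, 26 of the 57 rose and 8 fell in WT, and 27 and 6 in KO. Of all genes tested, 24.6% rose and 23.4% fell in WT, and 28.2% and 27.4% in KO. The same shares stand beside the counts for each list below, and nothing is read from these counts. In what follows, rose and fell mean higher and lower in KO than in WT on the same day, unless a change with time is named. The median difference of the 57 between the lines was -0.01, -0.08 and -0.00 at the 3 days. These lists too were drawn up with earlier results of the data known.

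Of the other class I heavy chain and class I-like genes, 10 of 23 named were tested. H2-Q4, a further Q gene that shares 39.2% of its windows of 50 bases with other genes, rose with time in both lines, by 2.36 ± 0.08 in WT (adjusted p = 5.96e-15) and 2.29 ± 0.09 in KO (adjusted p = 7.73e-15) on day 28 against day 1. It stood at 34.7 and 41.3 CPM in WT and 41.0 and 36.5 in KO on day 1, and at 199 and 190.3 against 197 and 180.4 on day 28, where the lines overlapped. KO minus WT for H2-Q4 was 0.03 ± 0.09 (adjusted p = 0.858), -0.16 ± 0.08 (0.0957) and -0.05 ± 0.08 (0.662). Its values thus lay closer between the lines than those of H2-Q6 and H2-Q7, though windows of H2-Q4 also occur in H2-Q6.

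In KO against WT, 1 of the 10 rose on day 1, 2 rose and 4 fell on day 14, and 1 rose and 4 fell on day 28. Mr1, which presents metabolites to innate-like T cells, rose at each day, by 0.60 ± 0.10, 0.86 ± 0.10 and 0.60 ± 0.09 (adjusted p = 3.78e-05, 2.5e-07 and 2.84e-05). H2-M3, which presents formylated peptides, fell by 0.92 ± 0.16 on day 14 and 0.68 ± 0.13 on day 28 on the log2 scale (adjusted p = 5.87e-05 and 0.000359). H2-T23, a non-classical heavy chain read by natural killer cell receptors, fell by 1.22 ± 0.24 on day 28 (adjusted p = 0.00034), and H2-T22 fell by 0.52 ± 0.10 (adjusted p = 0.000215). H2-T24 rose by 1.06 ± 0.22 on day 14 (adjusted p = 0.000445). H2-M5 fell by 1.02 ± 0.38 on day 14 (adjusted p = 0.0303), a call lost without either WT library of that day (-0.97 and -1.06) or KO replicate 2 (-0.75). Between days 1 and 28, 5 of the 10 rose and 1 fell in WT, and 7 and 2 in KO. Besides H2-Q4, those that rose in both lines include H2-M3 (1.66 ± 0.14 in WT and 1.07 ± 0.16 in KO, adjusted p = 6.64e-09 and 7.01e-06) and H2-M5 (1.24 ± 0.29 and 1.24 ± 0.33, adjusted p = 0.00145 and 0.00298). H2-T22 rose in WT by 1.03 ± 0.10 and H2-T24 fell in KO by 0.90 ± 0.20 (adjusted p = 3.65e-08 and 0.000658).

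The loading chaperones were 4 genes, of which all but Tapbpl were lower in KO than in WT on day 14 and higher on day 28. Calr, which encodes calreticulin, was at 646 and 691 CPM in WT and 1092 and 1089.5 in KO on day 1. At day 14 it was at 3909 and 4044 in WT and 1024 and 994 in KO, and on day 28 at 5066 and 5795 against 8505 and 8027. The lines did not overlap on any day, with KO above WT on days 1 and 28 and below it on day 14. KO minus WT for Calr was 0.71 ± 0.07, -1.98 ± 0.07 and 0.61 ± 0.07 (adjusted p = 6.19e-08, 5.65e-15 and 4.58e-07). Pdia3, a disulfide isomerase that works with tapasin, had 0.38 ± 0.07, -1.33 ± 0.07 and 0.65 ± 0.07 (adjusted p = 0.000258, 6.32e-12 and 3.4e-07). Canx, which encodes calnexin, was at -0.12 ± 0.07, -1.16 ± 0.07 and 0.19 ± 0.07 (adjusted p = 0.189, 3.07e-11 and 0.0372). The day 28 call of Canx was lost in 7 of the 12 fits without 1 library each, and the value ran from 0.07 without WT replicate 1 to 0.32 without WT replicate 2 of that day. Tapbpl, a tapasin relative, fell by 0.36 ± 0.13 on day 1 (adjusted p = 0.0332), a call lost without any 1 of the 4 libraries compared (-0.32 to -0.40). All 4 rose from day 1 to day 28 in both lines, Calr by 3.02 ± 0.07 in WT and 2.92 ± 0.07 in KO (adjusted p = 7.34e-18 and 6.52e-18). For Tapbpl in WT (0.31 ± 0.12, adjusted p = 0.0435) this call was lost in 7 of the 12 fits without 1 library each (0.27 to 0.34).

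The immunoproteasome, an inducible form of the proteasome, uses Psmb8, Psmb9 and Psmb10 in place of Psmb5, Psmb6 and Psmb7. Psmb8 lies beside Tap1 and Tap2 in the MHC. It was at 13.9 and 14.2 CPM in WT and 2.65 and 2.65 in KO on day 1, at 39.6 and 39.7 against 23.4 and 24.1 on day 14, and at 65.0 and 55.4 against 25.1 and 31.4 on day 28. KO was below WT at every day without overlap, with differences of -2.40 ± 0.18, -0.74 ± 0.11 and -1.09 ± 0.10 (adjusted p = 1.05e-09, 1.62e-05 and 5.01e-08). Psmb8 rose from day 1 to day 28 by 2.10 ± 0.11 in WT and 3.42 ± 0.16 in KO (adjusted p = 4.44e-12 and 4.35e-13), so it was a further gene, like H2-K1 and H2-Q7, that was lower in KO and higher at the later days. Psmb9 rose with time as well, by 1.55 ± 0.25 and 2.15 ± 0.25 (adjusted p = 3.48e-05 and 2.76e-07). Between the lines Psmb9 was at -0.02 ± 0.31, 0.35 ± 0.21 and 0.59 ± 0.20 (adjusted p = 0.971, 0.175 and 0.0262), and the last call was lost without replicate 1 of WT (0.59) or of KO (0.49) on day 28. Psmb10 rose by 0.63 ± 0.20 in KO on day 1 (adjusted p = 0.0155), a call lost without WT replicate 1 (0.46) or KO replicate 1 (0.57) of that day. The activator genes Psme1 and Psme2 fell on day 14 by 0.33 ± 0.08 and 0.34 ± 0.12 (adjusted p = 0.00249 and 0.0226), and the Psme2 call was lost without WT replicate 1 (-0.23) or KO replicate 1 (-0.18) of that day and was -0.52 without KO replicate 2. Psme1 also fell on day 28 by 0.24 ± 0.08 (adjusted p = 0.0237), lost without WT replicate 1 (-0.18) or KO replicate 1 (-0.11) and -0.39 without KO replicate 2. Of the constitutive subunits, all 3 rose in KO on day 14, Psmb7 by 0.85 ± 0.07, Psmb5 by 0.51 ± 0.13 and Psmb6 by 0.50 ± 0.07 (adjusted p = 1e-09, 0.00205 and 7.47e-06). At day 28, 2 of the 3 rose, Psmb7 by 0.45 ± 0.07 and Psmb6 by 0.42 ± 0.07 (adjusted p = 1.03e-05 and 7.93e-05).

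**Figure D5:**
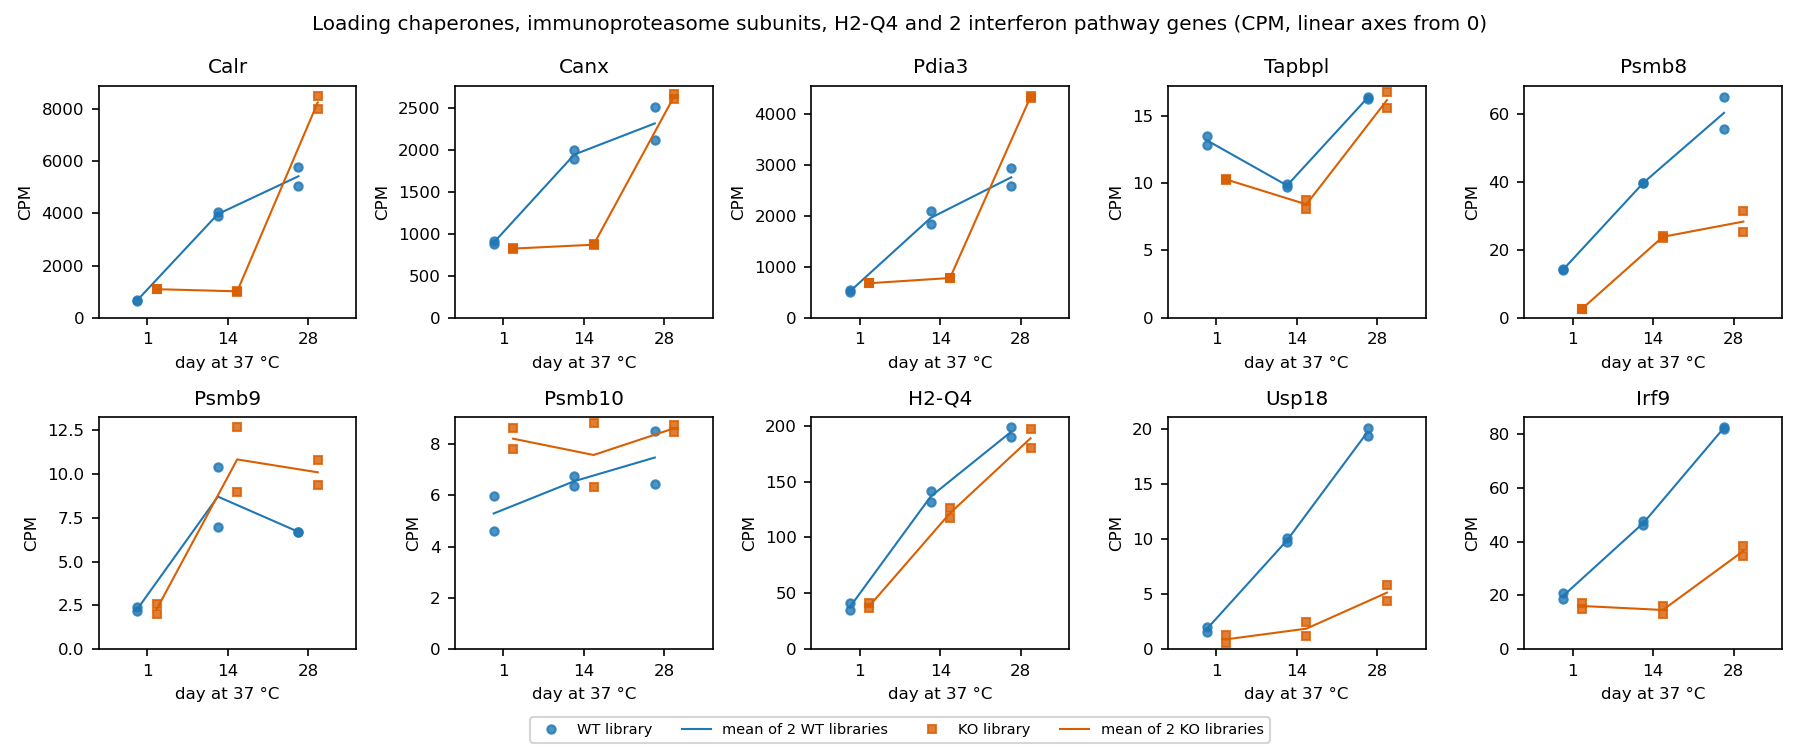
CPM (linear axes from 0) of the 4 loading chaperones, the 3 immunoproteasome subunits, H2-Q4, Usp18 and Irf9 by day at 37 °C; each point is 1 library, WT as blue circles and KO as orange squares, and the lines join the means of 2 libraries. Calr, Canx and Pdia3 are lower in KO than in WT on day 14 (Calr at 1024 and 994 CPM against 3909 and 4044) and higher on day 28, Psmb8 is lower in KO on each day, and H2-Q4 is similar in both lines.

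The trimming enzymes of the cytosol and endosomes had 6 of 7 genes tested, of which 2 rose and 1 fell in KO on day 1, 4 and 0 on day 14, and 3 and 1 on day 28. Tpp2, a large cytosolic peptidase, rose by 0.50 ± 0.06, 0.52 ± 0.06 and 0.42 ± 0.06 (adjusted p = 8.36e-07, 4.18e-07 and 7.98e-06). Blmh, bleomycin hydrolase, rose by 0.63 ± 0.08 on day 14 and 0.48 ± 0.08 on day 28 (adjusted p = 7.7e-07 and 3.4e-05), and Thop1, which degrades peptides, by 0.46 ± 0.10 on day 14 (adjusted p = 0.000391). Blmh also rose on day 1 by 0.30 ± 0.07 (adjusted p = 0.00324), a call lost without WT replicate 2 (0.25). Lap3, leucine aminopeptidase, fell by 0.24 ± 0.07 on day 1 and 0.26 ± 0.07 on day 28 (adjusted p = 0.00851 and 0.00423), the first lost without WT replicate 1 (-0.23) or either KO library (-0.22 and -0.24). Npepps was at 0.18 ± 0.07 on day 14 and 0.19 ± 0.07 on day 28 (adjusted p = 0.0419 and 0.0299), and the day 28 value ran from 0.10 without WT replicate 1 to 0.29 without WT replicate 2.

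Interferon signalling genes numbered 15, all tested. In KO against WT, 3 rose and 5 fell on day 1, 1 and 7 on day 14, and 2 and 7 on day 28. Irf9, a DNA-binding factor of type I interferon signalling, stood at 47.9 and 46.2 CPM in WT and 13.2 and 15.9 in KO on day 14, and at 82.8 and 82.1 against 34.7 and 38.4 on day 28. Irf9 fell by 1.69 ± 0.11 and 1.17 ± 0.09 at these days (adjusted p = 8.29e-11 and 2.48e-09). Usp18, an interferon-induced inhibitor of the receptor, fell by 2.38 ± 0.28 and 1.93 ± 0.20 (adjusted p = 4.16e-07 and 1.82e-07). Jak2 fell by 0.82 ± 0.09 on day 1 and 0.70 ± 0.09 on day 14 (adjusted p = 3.03e-07 and 2.08e-06), and the interferon gamma receptor chain Ifngr1 rose by 0.65 ± 0.08 on day 14 and 0.64 ± 0.08 on day 28 (adjusted p = 1.24e-06 and 1.29e-06). Stat2 rose by 0.57 ± 0.09 on day 1 and fell by 0.75 ± 0.08 on day 28 (adjusted p = 3.2e-05 and 4.51e-07), and Ifnar2 fell by 0.64 ± 0.12 on day 1 (adjusted p = 0.000249). Ifngr2, the other gamma receptor chain, fell by 0.36 ± 0.10 on day 1 (adjusted p = 0.00705), a call lost without WT replicate 1 (-0.32) or KO replicate 2 (-0.35).

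Irf1, a factor that acts on class I promoters, was at -0.15 ± 0.08, -0.08 ± 0.08 and 0.20 ± 0.08 (adjusted p = 0.149, 0.453 and 0.0447), and the last call was lost in 9 of the 12 fits without 1 library each (0.16 to 0.21). With time, 11 of the 15 rose and 1 fell in WT, and 10 rose and 0 fell in KO, from day 1 to day 28. Irf9 rose by 2.06 ± 0.10 in WT and 1.19 ± 0.11 in KO (adjusted p = 5.27e-13 and 7.69e-09). Usp18 rose by 3.45 ± 0.24 and 2.50 ± 0.34 (adjusted p = 1.64e-10 and 2.29e-06). Stat2 rose by 1.34 ± 0.09 in WT and was at 0.02 ± 0.09 in KO (adjusted p = 7.18e-11 and 0.842). Irf1 rose by 0.50 ± 0.08 in WT and 0.84 ± 0.08 in KO (adjusted p = 2.45e-05 and 1.49e-08). The interferon genes themselves were looked for by 9 names and none passed the filter. Ifnb1 and Ifng had 0 counts in all 12 libraries, and Ifnk had at most 3.

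Of the 10 factors that act with Nlrc5 or at the kappa B site, 1 rose and 2 fell in KO on day 1, 5 and 1 on day 14, and 5 and 1 on day 28. Rela, an NF-kappa B subunit, fell by 0.42 ± 0.07, 0.51 ± 0.08 and 0.55 ± 0.07 (adjusted p = 0.000102, 1.79e-05 and 4.22e-06). Nfya, a subunit of the factor that binds CCAAT boxes, rose by 0.39 ± 0.07, 0.44 ± 0.07 and 0.35 ± 0.07 (adjusted p = 0.000125, 3.53e-05 and 0.00046). Creb1 rose by 0.41 ± 0.07 on day 14 and 0.71 ± 0.07 on day 28 (adjusted p = 2.96e-05 and 3.41e-08), and Rfxank, a subunit of the RFX complex, by 0.66 ± 0.16 on day 14 (adjusted p = 0.00154). Atf1 rose by 0.35 ± 0.08 on day 28 (adjusted p = 0.00142; 0.21 without WT replicate 1). Nfyc was at -0.27 ± 0.11 on day 1 (adjusted p = 0.0442), and -0.18 without WT replicate 2, where it was not called. Rfx5 was at 0.19 ± 0.09, 0.21 ± 0.09 and 0.23 ± 0.10 (adjusted p = 0.108, 0.0741 and 0.065) and fell with time in both lines, by 0.44 ± 0.09 in WT and 0.40 ± 0.09 in KO (adjusted p = 0.000586 and 0.00104).

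MHC class II genes, which present peptides to CD4 T cells, were near the floor of detection. Their transactivator Ciita had 2 to 7 counts per library and was not tested, and 4 of 12 genes were tested. H2-Ab1, a class II beta chain, was at 0.346 to 2.62 CPM over the 12 libraries and Cd74, the invariant chain, at 1.18 to 4.86. KO minus WT for H2-Ab1 was -1.64 ± 0.46, -1.55 ± 0.52 and -1.13 ± 0.53 (adjusted p = 0.0069, 0.0181 and 0.0941). The day 1 call was lost without WT replicate 2 (-1.10) or KO replicate 1 (-1.57), and the day 14 call without WT replicate 2 (-1.10) or either KO library (-1.51 and -1.59). For Cd74 it was -1.11 ± 0.35, -0.92 ± 0.36 and -0.63 ± 0.32 (adjusted p = 0.0148, 0.0374 and 0.12). The Cd74 calls were lost without WT replicate 2 or KO replicate 2 of day 1 (-0.96 and -0.82), and without WT replicate 2 or either KO library of day 14 (-0.42, -1.06 and -0.78). H2-DMb1, which helps to load class II molecules, rose by 0.78 ± 0.17 on day 1 and 0.61 ± 0.18 on day 14 (adjusted p = 0.000762 and 0.0063), the latter lost without WT replicate 2 (0.43). The summed leukocyte markers overlapped between the lines on day 1 (12.3 to 15.2 CPM in WT and 11.0 to 15.3 in KO) and did not on day 14 (14.2 to 23.3 against 12.4 to 13.0), and their part in these low counts was not tested.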

How the data were processed

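The authors' deposited table gives raw counts for each gene in 12 poly(A) RNA-seq libraries. Per the submitters' processing notes, STAR, featureCounts of Subread and edgeR were used on build mm10, with no version listed, and per the labels' protocols the libraries were made with an xGen RNA kit. Which annotation, strand setting and rule for reads with several matches they used is not given in the sources used here. Of 32248 rows, 3 held transgenes and were left out, and 9345 had no count. Totals ran from 8590067 to 15357427 per library, so counting error matters mainly for genes of few counts such as H2-Q6.

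The tests were run in R 4.3.3 (edgeR 4.0.16). filterByExpr (minimum count 10, minimum total 15) kept 13772 genes, TMM scaled the libraries, and 1 quasi-likelihood model with 6 groups was fitted to all 12 libraries (6 residual degrees of freedom, biological coefficient of variation 5.53%). Tests were two-sided, with Benjamini-Hochberg adjustment over all genes. Standard errors were taken from the fold change and its F statistic. RPKM used exon lengths from the GENCODE annotation of GRCm38/mm10. The script was tested on simulated data.

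The 10 genes, the lists and the alternatives were chosen with earlier results of these data known. From each list the text names the called genes with the largest log2 fold changes (up to 4 per list and comparison), all genes of lists of up to 5, and Irf1, Rfx5, Ciita, Cd74 and Piezo1. Further genes named, such as H2-Q4 by day, Csf1r and Kdr, were chosen after their values were seen, and 1 gene the rule names is not reported here. Alternatives were library totals, DESeq2 1.42.0, other filters (none, or at least 1 CPM in every library of a group), a replicate block, 4-library fits, each library left out and, for levels, library totals and the longest protein-coding transcript.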

Additional observations from a re-analysis of the deposited data

Results flagged for a closer look

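The lines differed in how several genes changed with time. Values are the change in KO minus the change in WT on the log2 scale. Tapbp stood apart in direction: both WT libraries were higher at day 28 than at days 1 and 14, and both KO libraries of day 28 were lower than those of days 1 and 14. Against day 14 the KO step rested mostly on replicate 1 of day 28 (52.2 CPM). Replicate 2 (75.2 CPM) lay close to the lower day 14 library (75.8 CPM). Its value was -1.10 between days 14 and 28, and also -1.10 between days 1 and 28. No test of this difference is given, since the gene was chosen with results in view.

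The other genes came from lists drawn up with earlier results of the data known. They are shown because they passed the edgeR quasi-likelihood test for the difference of the changes (adjusted p below 0.05). Passing was thus built in and adds no support. That difference is the value given for each gene. Between days 1 and 14 it was lower in KO for Calr (-2.69), Pdia3 (-1.71), Irf9 (-1.39), Canx (-1.04), H2-M3 (-0.84), Stat2 (-0.80) and Fcgrt (-0.54), the neonatal Fc receptor. It was higher for Psmb8 (1.66), Thop1 (0.62), Psmb7 (0.59), Lap3 (0.34) and Blmh (0.34). From day 1 to day 28 it was lower in KO for Stat2 (-1.32), Irf9 (-0.87) and H2-T22 (-0.62), and higher for Psmb8 (1.32), Jak2 (0.60), Creb1 (0.56) and Canx (0.31).

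Some of these calls were lost when single libraries were left out. For days 1 to 14, the H2-M3 call was lost without WT day 1 replicate 1 (-0.81), WT day 14 replicate 2 (-0.64), KO day 1 replicate 2 (-0.72) or KO day 14 replicate 1 (-0.79). The Lap3 and Blmh calls were each lost in 6 of the 12 fits without 1 library, with values of 0.27 to 0.35 for Lap3 and 0.24 to 0.35 for Blmh. The day 1 to day 28 call of Canx was lost in 9 of the 12 (0.19 to 0.32), and the Jak2 value was 0.40 without KO day 28 replicate 1.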

How the results depend on the processing

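Among the class I genes, the pathway lists and Piezo1, no value that passed its test changed direction in any setting. Values of the cell type markers, Csf1r and Kdr among them, were not compared over the settings. For KO minus WT at day 28, a fit of only the 4 libraries compared called 3612 genes in place of 5646. Leaving out 1 library at a time moved the count of genes whose change differed between the lines from 2595 to between 1668 and 3508 (days 1 to 14), the lowest without KO day 1 replicate 2 and, at 1679, without KO day 14 replicate 1. For the KO minus WT difference of the change from day 1 to day 28 it moved from 2759 to between 1691 and 3899, with 1691 without KO day 1 replicate 2 and 1807 without replicate 1 of either line on day 1. Of the class I genes, 3 were called for days 1 to 14 (3 to 5, the latter without either WT day 28 library), and of the pathway genes 13 (10 to 20, the latter likewise). For days 14 to 28, 14 pathway genes were called (8 to 16, with 8 without WT day 14 replicate 1 and 9 without KO day 14 replicate 1). The cause was not tested. With the length of the longest protein-coding transcript, chosen after seeing the data, the order of levels kept 5 of 10 ranks in WT on day 14, 6 in WT on day 28, 6 in KO on day 1 and 6 in KO on day 28.

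The labels state no pairing by replicate number. The correlation of deviations between same-numbered libraries ran from -0.0402 to 0.112 over 15 pairs of groups. Only 1 was above 0.1, that of WT and KO on day 28. With 2 libraries per group, these values cannot exclude a pairing or shared handling. With the replicate block, KO minus WT at day 1, KO minus WT at day 14 and KO minus WT at day 28 gave 5519, 6785 and 5643 genes called, with 6, 5 and 8 of the 10 class I genes. In KO, H2-Q6 had 2 to 5 counts per library, so that only a large change with time could have been seen there.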
